A study of Macaca mulatta with 16 samples.

Results

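SPON1, EDIL3, FLRT3, CCN3, PTN, TBX18, SIX2, HTR4 and GJA1 are 9 genes known from development and mesenchyme. They were chosen by their levels in these animals, as genes low in the fetal lung 5 days after intraamniotic lipopolysaccharide (LPS), with or without betamethasone, and kept in untreated lung near term. They are 9 of 22515 genes in the count table, each matched by symbol to 1 rhesus Ensembl gene, and all 9 are among the 19192 genes that passed a filter on low values. SIX2 passed that filter through few animals, since only 7 of 16 reached its minimum of 0.371 CPM (counts scaled by library size), against 13 for TBX18 and 16 for each of the other 7 genes. Because the 5-day, preterm and term levels selected the genes, those levels are given as a description, with no test. Tests of the 9 genes are given only for the animals delivered 16 hours after LPS.

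Lungs of 16 fetal rhesus macaques were sequenced, 1 library per animal. Preterm controls (n = 4) had no intervention and were delivered at 131 to 135 days of gestation, and term controls (n = 2) had none and were delivered at 156 to 157 days. LPS, an endotoxin of bacterial walls, was injected into the amniotic fluid at 1 mg in the other 10 animals. Of these, 4 were injected at 129 to 130 days and delivered 16 hours later at 130 to 131 days (LPS 16 h), and 3 were injected at 126 to 129 days and delivered 5 days later at 131 to 134 days (LPS 5 d). The last 3, injected at 126 to 127 days and delivered 5 days later at 131 to 132 days, also had 0.125 mg/kg of betamethasone-acetate (Beta-Ac), a slow-release corticosteroid given into the muscle of the mother (LPS + Beta-Ac). The exposure was a single dose of endotoxin and not a live infection, and an animal group with Beta-Ac alone was not analysed here. The labels name no batch, sex or pairing, and the term group is limited to 2 animals.

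In the developing lung the mesenchyme is the connective tissue between the airway epithelium and the vessels. It lays down matrix, gives rise to fibroblasts, smooth muscle and pericytes, and exchanges growth factor signals with the epithelium, and it thins as the saccules form. The 9 genes are of several kinds: EDIL3, SPON1 and FLRT3 act in matrix and adhesion, PTN and CCN3 are secreted signals, TBX18 and SIX2 are transcription factors, HTR4 is a receptor and GJA1 a channel. Bulk lung does not show which cells expressed them.

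Total counts ran from 20169363 to 28348816 in the preterm controls, 5-day groups and term controls, and from 30596371 to 48052891 at 16 hours, so depth and the 16-hour group cannot be told apart. In bulk tissue, fewer cells of a type and less RNA per cell cannot be told apart either. None of 12 matrix fibroblast markers and none of 10 smooth muscle and pericyte markers was at 0 in any animal. Preterm control 209 and, of the 2 term controls, animal 200 were high in CCN3 and SIX2, and values without them are given there.

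**Figure D1:**
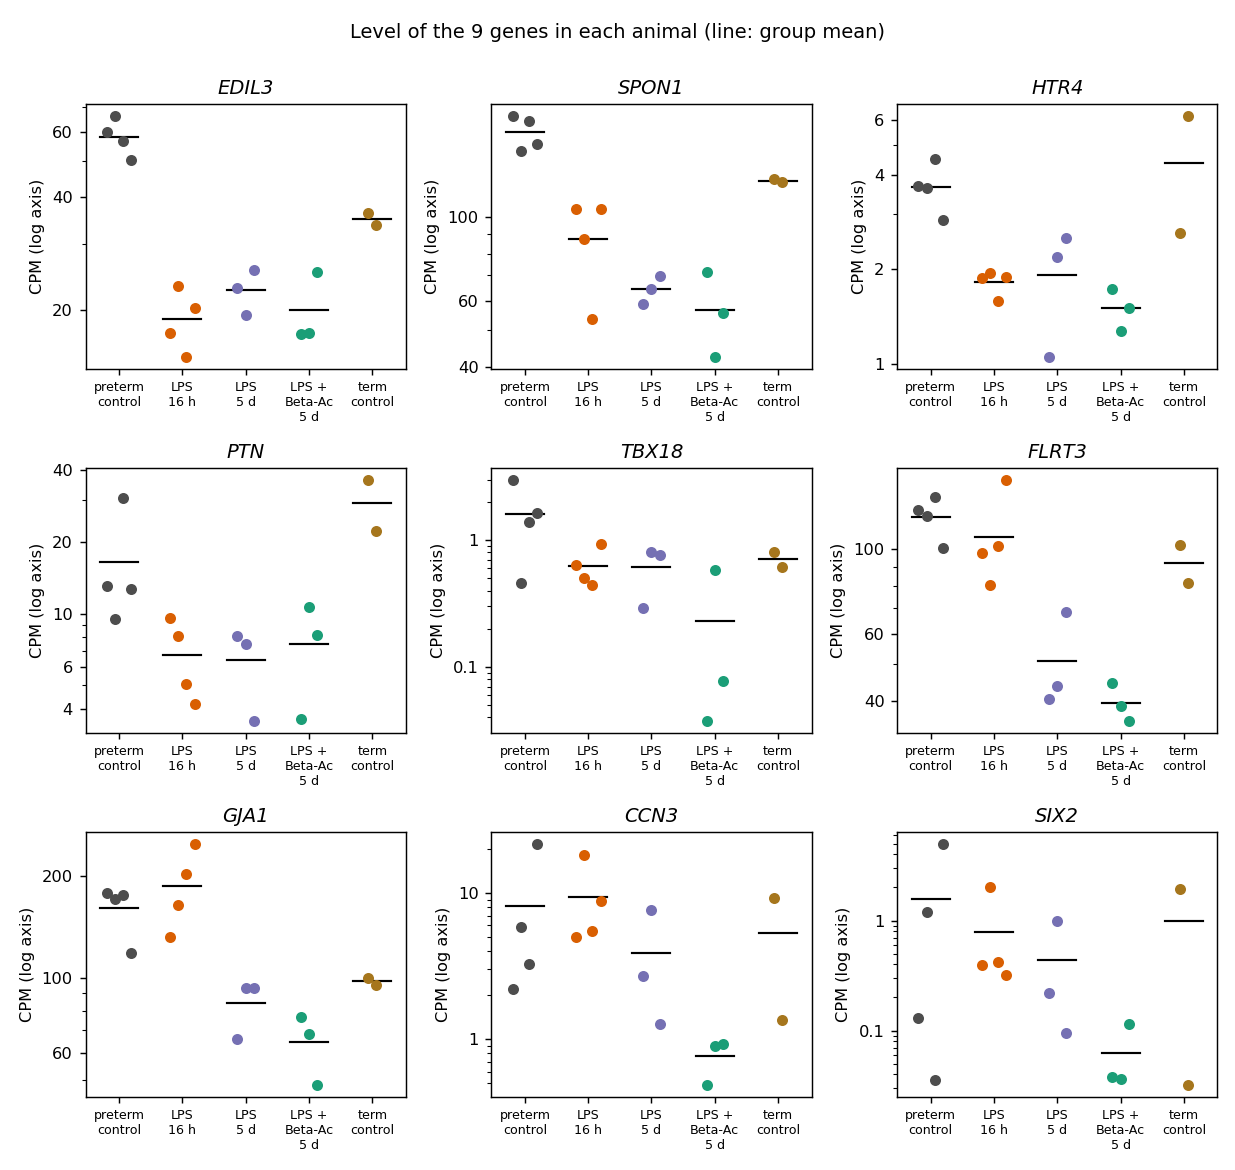
CPM on a log axis for each of the 9 genes, with 1 point per animal and a line at the group mean, in the 5 groups. EDIL3, SPON1 and HTR4 at 16 hours lie below every preterm control, FLRT3 and GJA1 at 16 hours overlap the preterm controls, and CCN3 and SIX2 have 1 high animal in each group other than LPS + Beta-Ac.

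EDIL3, a secreted adhesion protein that binds integrins and restrains leukocyte attachment to endothelium, had the smallest adjusted p of the 9 genes at 16 hours. It measured 59.9, 65.9, 56.5 and 50.2 CPM in the preterm controls and 17.3, 23.2, 14.99 and 20.2 CPM at 16 hours. At 5 days it was at 22.9, 19.3 and 25.6 CPM after LPS and 17.2, 17.3 and 25.2 CPM after LPS + Beta-Ac. The term controls had 36.2 and 33.8 CPM. All 10 exposed animals lay below both term animals, which in turn lay below all 4 preterm controls, so EDIL3 was only partly kept at term. The level 16 hours after LPS was 0.324 times the preterm level, a log2 difference of -1.63 ± 0.16 (SE, 4 against 4 animals; limma with Benjamini-Hochberg adjustment, adjusted p = 1.33e-06). The preterm controls of this test were also used to choose the genes, so it is not fully independent of the choice. As a description, the fitted log2 differences from preterm were -1.36 ± 0.17 for LPS 5 d, -1.56 ± 0.17 for LPS + Beta-Ac and -0.72 ± 0.19 at term.

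SPON1 encodes F-spondin, a matrix protein first known from the floor plate that guides axons and supports cell attachment. Its levels were 185.4, 150.4, 179.9 and 156.6 CPM in the preterm controls and 104.9, 87.3, 53.5 and 105.0 CPM at 16 hours. At 5 days they were 58.6, 64.5 and 69.7 CPM after LPS and 71.5, 42.5 and 55.5 CPM after LPS + Beta-Ac. Both term animals, at 126.1 and 123.8 CPM, lay below the preterm range and above every exposed animal. At 16 hours SPON1 differed by -0.98 ± 0.19 on the log2 scale (limma adjusted p = 0.00101), 0.506 times the preterm level. That is past the threshold on adjusted p but just short of the 2-fold minimum for a call, and it crossed that minimum in 6 of 24 alternative settings. As a description, SPON1 was -1.38 ± 0.21 from preterm after LPS at 5 days, -1.60 ± 0.21 after LPS + Beta-Ac and -0.42 ± 0.24 at term, so its mean at 16 hours lay between those of the preterm and 5-day animals.

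FLRT3, a membrane protein with leucine-rich repeats that binds UNC5 receptors and latrophilins and works with FGF receptors, did not follow EDIL3 and SPON1 at 16 hours. The preterm controls had 126.6, 122.4, 137.2 and 100.9 CPM and the 16-hour animals 97.7, 80.8, 102.2 and 151.7 CPM. The 5-day animals had 40.5, 43.8 and 68.6 CPM after LPS and 44.5, 38.9 and 35.5 CPM after LPS + Beta-Ac. Term levels were 103.0 and 81.5 CPM. All 6 animals at 5 days were below all 10 others. At 16 hours the log2 difference from preterm was -0.20 ± 0.19, with a 95% interval from -0.61 to 0.21 (limma adjusted p = 0.438), an interval that holds no 2-fold fall. As a description, FLRT3 was -1.29 ± 0.21 from preterm after LPS at 5 days, -1.62 ± 0.21 after LPS + Beta-Ac, -0.40 ± 0.24 at term, and 1.08 ± 0.21 higher at 16 hours than at 5 days of LPS.

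PTN, pleiotrophin, is a heparin-binding growth factor that acts through PTPRZ1, ALK and syndecans. It measured 13.0, 9.48, 30.7 and 12.8 CPM in the preterm controls and 9.56, 8.06, 5.08 and 4.19 CPM at 16 hours. At 5 days it measured 8.09, 7.48 and 3.56 CPM after LPS and 3.61, 10.7 and 8.17 CPM after LPS + Beta-Ac. The term animals had 36.3 and 22.3 CPM, above all preterm controls other than number 113. The 16-hour and preterm ranges touched, with 9.56 against 9.48 CPM. PTN was lower at 16 hours by a log2 difference of -1.21 ± 0.42 (limma adjusted p = 0.0343), but the call was lost when any of 4 animals was left out, and without preterm control 113 the difference was -0.86 (adjusted p = 0.109). As a description, PTN was -1.30 ± 0.46 from preterm after LPS at 5 days, -1.11 ± 0.46 after LPS + Beta-Ac and 0.94 ± 0.52 at term, the highest term difference of the 9 genes.

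HTR4, a serotonin receptor that raises cyclic AMP, was already lower at 16 hours. Its levels were 3.70, 3.65, 4.50 and 2.87 CPM in the preterm controls and 1.88, 1.95, 1.58 and 1.89 CPM at 16 hours. The LPS animals at 5 days had 1.05, 2.19 and 2.52 CPM and the LPS + Beta-Ac animals 1.73, 1.27 and 1.502 CPM. The term animals differed from each other, with 2.61 and 6.17 CPM. All 10 exposed animals were below every control, preterm or term. The log2 difference at 16 hours was -0.97 ± 0.29 (limma adjusted p = 0.0143), 0.510 times the preterm level and again just short of the 2-fold minimum. It passed that minimum in 4 of 24 alternative settings, among them limma-voom (-1.002, adjusted p = 0.0127) and the fit without preterm control 209 (-1.08, adjusted p = 0.014). As a description, HTR4 was -0.99 ± 0.31 after LPS at 5 days, -1.25 ± 0.31 after LPS + Beta-Ac and 0.14 ± 0.35 at term.

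GJA1 encodes connexin 43, the gap junction channel that couples fibroblasts, smooth muscle and many other cells. Preterm controls had 178.7, 170.6, 175.6 and 118.6 CPM, the lowest being animal 209, and the 16-hour animals had 132.3, 164.2, 203.2 and 248.1 CPM. At 5 days the levels were 66.2, 93.5 and 93.1 CPM after LPS and 76.8, 68.5 and 48.4 CPM after LPS + Beta-Ac. Both term animals were low, with 99.96 and 95.41 CPM. GJA1 therefore goes against the name of the set, since each term animal lay below each preterm control and close above the highest LPS animal at 5 days, at 93.55 CPM. At 16 hours the log2 difference was 0.20 ± 0.20 (95% interval -0.24 to 0.63; limma adjusted p = 0.477), and it was -0.01 when libraries were scaled by total count. As a description, GJA1 was -0.93 ± 0.22 from preterm after LPS at 5 days, -1.32 ± 0.22 after LPS + Beta-Ac, -0.70 ± 0.25 at term, and 1.13 ± 0.22 higher at 16 hours than at 5 days of LPS.

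TBX18, a T-box factor of mural, epicardial and ureteral mesenchyme, was near the lower limit of the assay. It had 2.96, 0.462, 1.38 and 1.64 CPM in the preterm controls, from 10 to 68 counts, and 0.640, 0.507, 0.443 and 0.931 CPM at 16 hours. At 5 days it had 0.290, 0.806 and 0.759 CPM after LPS and 0.0376, 0.579 and 0.0770 CPM after LPS + Beta-Ac, where the counts were 1, 16 and 2. Term levels were 0.809 and 0.614 CPM. The term animals lay within the range of the 16-hour animals, so TBX18 was not set apart at term from exposed lung. The log2 difference at 16 hours was -1.06 ± 0.57 (limma adjusted p = 0.161), with no call. Over 24 alternative settings it ran from -1.53 to -0.70 (limma adjusted p from 0.0461 to 0.388), and 23 gave no call. The exception left out preterm control 101, the lowest of its group, with -1.53 (limma adjusted p = 0.0461). As a description, TBX18 was -1.14 ± 0.62 after LPS at 5 days, -2.70 ± 0.62 after LPS + Beta-Ac and -0.87 ± 0.70 at term.

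CCN3, a matricellular protein of the CCN family that tempers growth and matrix production, and SIX2, a homeobox factor that keeps kidney progenitors undifferentiated, varied mainly between animals. CCN3 had 2.22, 5.82, 3.26 and 21.5 CPM in the preterm controls and 5.01, 18.1, 5.50 and 8.84 CPM at 16 hours. It had 2.72, 7.64 and 1.28 CPM after LPS at 5 days, 0.489, 0.905 and 0.925 CPM after LPS + Beta-Ac, and 9.30 and 1.36 CPM at term. The 3 LPS + Beta-Ac animals were the lowest of all 16, whereas the LPS animals overlapped the preterm controls. SIX2 had 0.131, 1.202, 0.0355 and 4.91 CPM in the preterm controls, from 3, 26, 1 and 135 counts, and 0.391, 2.03, 0.420 and 0.320 CPM at 16 hours. It had 0.218, 0.998 and 0.0949 CPM after LPS at 5 days and 1.95 and 0.0323 CPM at term. With 1, 1 and 3 counts after LPS + Beta-Ac, no fold is given for SIX2 in that group. In all 5 groups the animal with the most CCN3 was also the animal with the most SIX2: preterm control 209, LPS 16 h animal 029, LPS animal 240, LPS + Beta-Ac animal 255 and term control 200. For LPS + Beta-Ac the margin was small, with 3 SIX2 counts against 1 and 1 and CCN3 at 0.925 against 0.905 CPM.

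**Figure D2:**
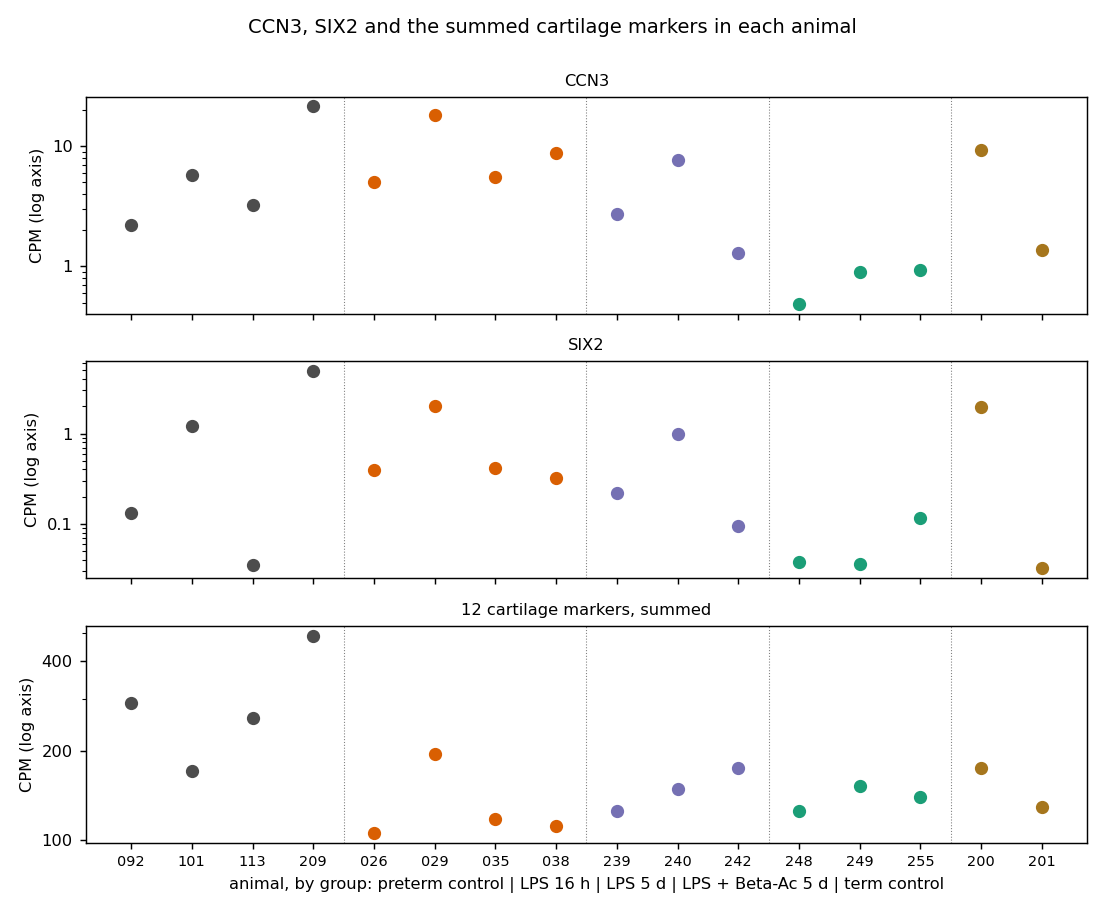
CPM on a log axis for CCN3, SIX2 and the sum of 12 cartilage markers, with 1 point per animal, ordered by group and separated by dotted lines. CCN3 and SIX2 peak in the same animal in all 5 groups, by a small margin in LPS + Beta-Ac. The cartilage sum, in most animals with COL9A1 as its largest part, peaks in that animal in 3 of them.

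For CCN3 and SIX2 the low level after LPS alone therefore rests on preterm control 209. As a description, CCN3 was -0.86 ± 0.82 from preterm after LPS at 5 days and -0.21 ± 0.61 without animals 209 and 200, and SIX2 was -0.71 ± 1.25 and 0.30 ± 0.93 in the same fits. The preterm mean was 8.19 ± 8.97 CPM (SD, n = 4) for CCN3, and 3.77 ± 1.85 CPM (SD, n = 3) without animal 209. After LPS + Beta-Ac, CCN3 was -2.77 ± 0.82 from preterm and -2.12 ± 0.61 without those animals. At term, CCN3 was -0.61 ± 0.93 and SIX2 -0.41 ± 1.42 from preterm, and -1.32 ± 0.87 and -1.55 ± 1.32 without those animals, so the term level rests on animal 200. At 16 hours the log2 differences were 0.56 ± 0.76 for CCN3 (limma adjusted p = 0.597) and 0.11 ± 1.16 for SIX2 (adjusted p = 0.951), and without animals 209 and 200 they were 1.21 ± 0.57 and 1.13 ± 0.87. The SIX2 mean was lower at 16 hours, at 0.789 against 1.57 CPM, and the preterm mean was 0.456 CPM without animal 209. The direction for SIX2 turned under total-count scaling and when any of 3 animals was left out. The sum of 12 cartilage markers was also highest in animal 209 among the preterm controls, at 488.6 CPM against 171.2 to 290.3 CPM, in 029 at 16 hours, at 195.9 against 106.1 to 117.7 CPM, and in 200 at term, at 175.2 against 130.0 CPM. COL2A1, the collagen that defines cartilage, was at 87.7 CPM in animal 209 and at 5.10 to 23.9 CPM in the other 3 preterm controls. At term COL2A1 was at 2.06 CPM in animal 200 and 1.62 CPM in animal 201. The gap between their sums lay mainly in COL9A1, at 89.5 CPM in animal 200 and 43.7 CPM in animal 201. COL9A1 was the largest part of the sum in most animals. After LPS at 5 days the sum was highest in animal 242, with COL9A1 at 107.4 CPM against 71.8 CPM in animal 240. Most other markers of the list were highest in animal 240 of that group, among them COL2A1, at 4.37 CPM against 3.46 CPM in animal 242. The part of cartilage in the CCN3 and SIX2 levels was not tested.

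Over the set, 2 of 9 genes were called lower at 16 hours (adjusted p below 0.05 and at least 2-fold), EDIL3 and PTN, against 6.06% of all genes tested, and none was called higher, against 8.33%. Leaving out 1 animal at a time gave 1 to 4 genes called lower, and limma-voom gave 3. On adjusted p alone, EDIL3, SPON1, PTN and HTR4 were lower, 4 of 9, against 19.6% of all genes. For EDIL3, SPON1 and HTR4, 3 of 9, every 16-hour animal lay below every preterm control, as it did for 16.6% of all genes. The median log2 difference of the 9 genes was -0.97, against -0.09 over all genes tested. The preterm controls also helped to choose the genes, so these counts and this median are not fully independent of the choice. FLRT3 and GJA1, with every 5-day animal below every preterm control, passed neither the call nor the adjusted p threshold at 16 hours.

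The 5-day and term counts describe the choice and test nothing. After LPS alone 3 genes met the call rule against preterm, SPON1, EDIL3 and FLRT3, with a background of 2.24%, and after LPS + Beta-Ac 7 did, all but PTN and SIX2, with a background of 2.44%. At term 0 of 9 met it, with a background of 0.954%. Even so, 7 of 9 had negative term differences, with a median log2 difference of -0.42 against -0.01 over all genes. With 2 term animals, a missed call does not show that a gene was kept. Every LPS animal lay below every preterm control for 6 genes, where the share over all genes was 15.6%, and every LPS + Beta-Ac animal did so for 6 genes, where it was 16.1%. Only SPON1, EDIL3 and FLRT3 met the rule in both 5-day groups, and over all genes 285 did, 195 of them without a term call. These comparisons share the same 4 preterm controls. After LPS alone, PTN (-1.30) and TBX18 (-1.14) passed 2-fold without an adjusted p below 0.05, and HTR4 (-0.99) and GJA1 (-0.93) stood just outside 2-fold. FLRT3 (-1.29) had the smallest difference of the 3 genes that met the rule.

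**Figure D3:**
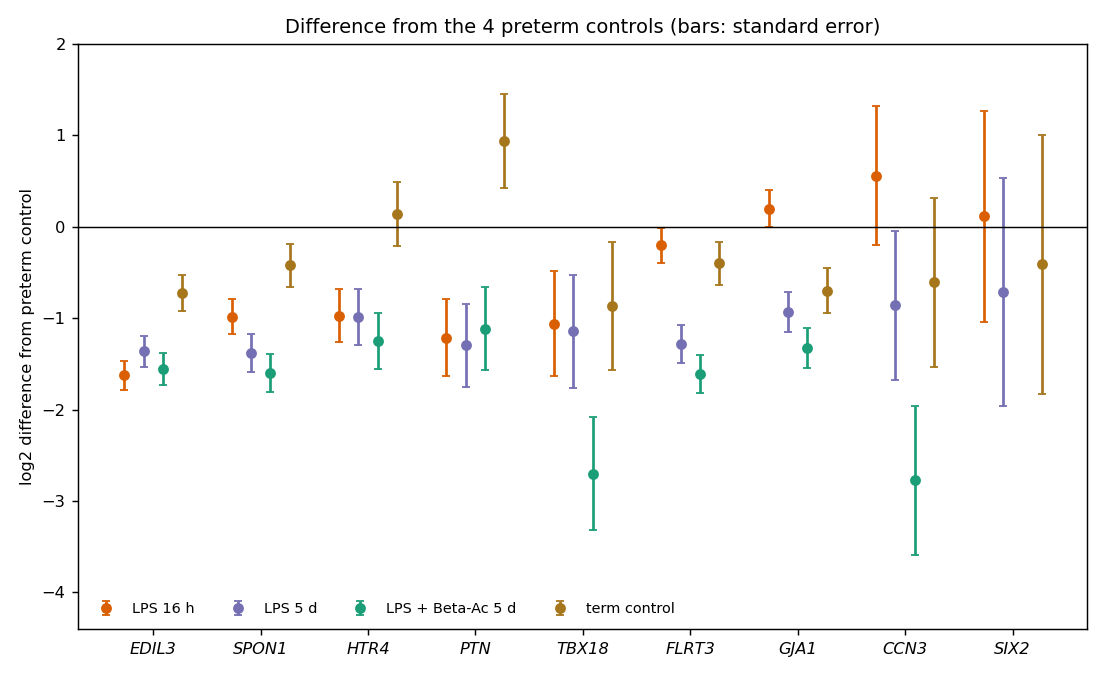
Fitted log2 difference from the 4 preterm controls for each of the 9 genes, with bars for 1 standard error, at LPS 16 h, LPS 5 d, LPS + Beta-Ac 5 d and term; SIX2 after LPS + Beta-Ac is left out for its low counts. EDIL3 lies at -1.63 at 16 hours, whereas FLRT3 and GJA1 lie at -0.20 and 0.20 there and at -1.29 and -0.93 after LPS at 5 days.

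Adding Beta-Ac to LPS was compared directly at 5 days. The levels of both groups chose the genes as low, so the differences of the 9 are a description and support nothing. None of the 9 met the call rule in limma, and over all genes 0 were called lower (0%) and 20 higher (0.104%), a count that was 0 in the compared groups alone, 3 with limma-voom and 2 to 55 when 1 animal was left out. The limma-voom fit also called none of the 9. Means were lower after LPS + Beta-Ac for 8 of 9 genes, PTN being the exception, and the median log2 difference was -0.33, against about 0 over all genes.

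CCN3 was 0.773 ± 0.246 CPM after LPS + Beta-Ac and 3.88 ± 3.33 CPM after LPS (SD, n = 3 each). All 3 LPS + Beta-Ac animals lay below all 3 LPS animals, as for 5.04% of all genes, and CCN3 was the only member of which this held. Its log2 difference was -1.91, with a 95% interval from -3.79 to -0.04. The 95% intervals of this comparison are not adjusted for the number of genes. In limma, 926 of 19192 genes had an unadjusted p below 0.05 between these groups. An interval without 0 is thus not a call. TBX18 differed by -1.56, with an interval from -2.97 to -0.14, on counts of 1, 16 and 2 against 8, 21 and 16. For the genes with higher counts the intervals were narrower. They ran from -0.69 to 0.26 for SPON1, from -0.59 to 0.20 for EDIL3, from -0.80 to 0.15 for FLRT3 and from -0.89 to 0.11 for GJA1. The intervals were from -0.97 to 0.44 for HTR4 and from -0.86 to 1.22 for PTN.

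Relatives of the 9 genes, their receptors and partners, and other regulators of lung mesenchyme were listed from general knowledge, with earlier results of these data known. Of 40 relatives, 32 were tested, and at 16 hours 6 were called lower and 5 higher, where 6.06% and 8.33% of all genes were, with a median log2 difference of -0.56 against -0.09 over all genes. SPON2, a spondin of innate immunity, fell from 37.8 to 4.87 CPM (log2 difference -2.96 ± 0.47, limma adjusted p = 2.23e-04), against -0.98 for SPON1. FLRT1 was lower (-1.41 ± 0.48) where FLRT3 was not. CCN4, a Wnt target of the CCN family, rose by 1.24 ± 0.33. The T-box genes of lung mesenchyme lay on the same side as TBX18. TBX2 fell from 400.0 to 153.7 CPM (limma adjusted p = 1.73e-06) and TBX3 from 330.7 to 87.7 CPM (adjusted p = 1.14e-08), and all 5 T-box relatives tested had negative differences. SIX4 rose by 1.47 ± 0.37.

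Among 6 serotonin receptors of the list that were tested, HTR1F was lower (-1.90 ± 0.33) and HTR7, which like HTR4 raises cyclic AMP, was higher (1.31 ± 0.32). HTR1E, which is not in the list and is named after its values were seen, was also lower (-1.57, limma adjusted p = 0.0337). Of 8 connexins tested, GJA5 (-1.43 ± 0.21) was lower and GJB2 (3.62 ± 0.83) and GJD3 (1.80 ± 0.57) were higher, and the other 5, like GJA1, met no call. GJA5, the connexin 40 of arteries, went from 145.5 to 55.4 CPM. None of the 32 relatives was called between the 5-day groups.

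**Figure D4:**
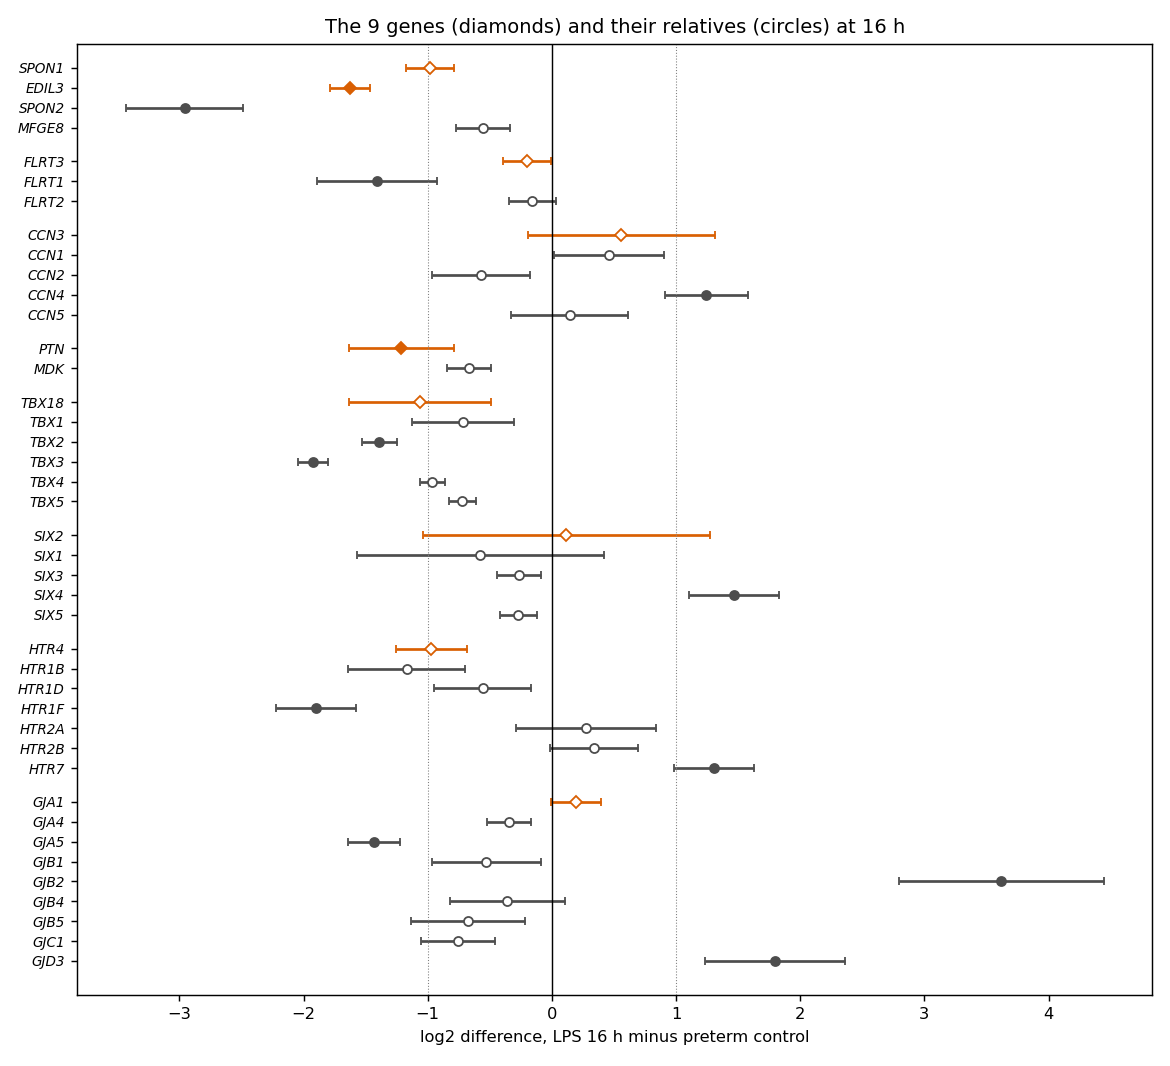
Log2 difference between LPS 16 h and preterm controls, with bars for 1 standard error, for the 9 genes (diamonds) and their relatives (circles), grouped by family, with filled symbols for calls and dotted lines at a 2-fold difference. All 5 T-box relatives lie left of 0, while connexins and serotonin receptors lie on both sides.

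Of 38 partners tested, 5 were called lower and 4 higher at 16 hours, beside 6.06% and 8.33% of all genes, with a median log2 difference of -0.23. Among the integrins that bind EDIL3, ITGB3 rose by 1.48 ± 0.29 and ITGB5 was lower by -1.15 ± 0.12. LRP8, a receptor bound by F-spondin, rose by 1.47 ± 0.29. Of the PTN partners, SDC4 went from 154.3 to 593.9 CPM (limma adjusted p = 2.47e-07) and NCL, nucleolin, rose by 1.04 ± 0.12. EYA1, a coactivator of homeobox factors such as SIX2, was lower by -1.60 ± 0.27. In the serotonin pathway the transporter SLC6A4 (-2.60 ± 0.42) and the synthetic enzyme TPH2 (-1.31 ± 0.42) were lower, as was CAV1 (-1.68 ± 0.14), a caveolar protein that binds connexin 43 and also marks type 1 epithelial cells.

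Of 36 other mesenchymal regulators tested, 5 were called lower and 3 higher at 16 hours, beside the same 6.06% and 8.33%, so the higher calls were at the share of all genes. Their median log2 difference was -0.34. TCF21, a factor of lung fibroblast progenitors, went from 164.0 to 42.9 CPM (limma adjusted p = 7.59e-07), and FOXF1, the Hedgehog target that patterns lung mesenchyme, from 75.6 to 36.1 CPM (adjusted p = 1.91e-05). HOXB5 (-1.36 ± 0.18), FGF9 (-1.47 ± 0.36) and OSR2 (-2.02 ± 0.42) were also lower. PRRX2 (2.07 ± 0.33), SNAI1 (1.09 ± 0.32) and FGF7 (1.41 ± 0.22) were higher. OSR2, an odd-skipped factor, was the only gene of these 3 lists to be called lower in both 5-day groups and not at term. Its mean was 1.44 CPM in preterm controls, 0.298 at 16 hours, 0.476 after LPS, 0.228 after LPS + Beta-Ac and 0.509 at term, so the term mean was low as well and only missed the call.

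The summed markers of the mesenchyme itself were lower at 16 hours, though few single markers were called. At 16 hours 10 of 12 matrix fibroblast markers had negative differences and 2 were called lower, and their summed level was 12480 to 17220 CPM against 18420 to 28500 CPM in preterm controls. It was 11630 to 18390 CPM after LPS at 5 days, 12120 to 15140 CPM after LPS + Beta-Ac, and 12170 to 12730 CPM at term. The 10 smooth muscle and pericyte markers summed to 3143 to 3790 CPM in preterm controls, 2508 to 2799 at 16 hours, 2108 to 2187 after LPS, 1957 to 2411 after LPS + Beta-Ac and 1827 to 2389 at term. At 16 hours 8 of them had negative differences, with 2 called lower and 1 called higher. Beside the calls of both lists, 6.06% of all genes were called lower and 8.33% higher at 16 hours. Both sums were thus below every preterm control at term too. Of the 9 genes, 7 had negative differences at term. Both term animals lay below every preterm control for SPON1, EDIL3 and GJA1, whereas PTN and HTR4 were not lower. The share of all genes with such a gap at term was not computed. The term and preterm levels also helped to choose the genes, so the gap is a description only. The sum of 10 myeloid markers was 1932 to 2366 CPM at 16 hours and 137.5 to 237.7 CPM in preterm controls. The sum of 10 proliferation markers was 177.7 to 248.4 CPM in preterm controls, 169.8 to 212.5 at 16 hours, 107.1 to 118.3 after LPS at 5 days, 131.4 to 137.1 after LPS + Beta-Ac and 86.1 to 99.9 at term. Against preterm, 7 of these 10 were called lower after LPS at 5 days, 4 after LPS + Beta-Ac and 6 at term. Over all genes the shares called lower were 2.24%, 2.44% and 0.954% in the same order. The 8 type 2 epithelial markers summed to 6559 to 11280 CPM in preterm controls, 9402 to 22760 at 16 hours, 15360 to 29240 after LPS, 17630 to 30170 after LPS + Beta-Ac and 17030 to 22600 at term. The part of these cell type shifts in the levels of the 9 genes was not tested.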

How the data were processed

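Total RNA of frozen lung (Trizol per the labels, RNeasy in the study's methods) was sequenced as 75 bp paired-end reads after polyA selection. Per the submitters' processing notes and the study's methods, the authors mapped the reads to Mmul_10 with kallisto, summarised them by gene with tximport and tested them with DESeq2. The deposited table holds whole-number counts per Ensembl gene for 16 animals, with no depth correction. Symbols came from a gene name table for 17256 of 22515 IDs, and no coordinates or sequences were used.

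Here counts were scaled by TMM factors, genes with at least 0.371 CPM in 2 animals and 15 counts in all were kept, and log2 CPM (prior count 2) were fitted with limma 3.58.1 in R 4.3.3, 1 mean per group, with the trend and robust options. P-values were Benjamini-Hochberg adjusted over 19192 genes; a call needed adjusted p below 0.05 and at least 2-fold. Levels are TMM-scaled CPM, which carry gene length, so genes are not compared in level. Replicates are animals. The fit was tested on simulated counts, with planted changes larger than 2-fold in genes of higher counts. It was not tested on differences near 2-fold or on low counts.

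Some genes of the lists are not reported here. The members, lists and tests were chosen with earlier results of these data known. Genes named outside the 9 were those of the lists called in a tested comparison, and OSR2 by its pattern. The 10 highest and 5 lowest correlations with the members' mean were also named. COL2A1, COL9A1, MATN3, ACAN and HTR1E were named after their values were seen. A group with a mean under 4 counts got no fold. Alternatives were other scalings, no low-count filter, prior count 0.5, limma-voom, no robust option, the compared groups alone, and leaving animals out.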

Additional observations from a re-analysis of the deposited data

Results flagged for a closer look

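Within groups of 4 animals, 3 of 18 gene and group combinations held an animal whose gap to its nearest neighbour was a larger share of the group range than Dixon's 95% critical value, on the log2 CPM scale. Chance flags about 1 in 20 such groups. SIX2 was highest in LPS 16 h animal 029, with a gap of 0.865 of the range (2.03 CPM against 0.320 to 0.420 CPM). HTR4 was lowest in LPS 16 h animal 035, with a gap of 0.837 (1.58 CPM against 1.88 to 1.95 CPM). On the CPM scale HTR4 in that group was at 0.823, short of the critical value, and PTN in the preterm controls, highest in animal 113, was past it at 0.833. GJA1 was lowest in preterm control 209, with a gap of 0.886 (118.6 CPM against 170.6 to 178.7 CPM). Without animals 209 and 200 the GJA1 difference at 16 hours was 0.06 ± 0.21 on the log2 scale (limma adjusted p = 0.856).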

How the results depend on the processing

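No paired analysis was possible because every animal number occurs in 1 group only. Scaling by total count moved the median log2 difference of all genes at 16 hours from -0.09 to -0.29; it gave 1936 lower calls in place of 1163, 4 of the 9 genes called lower in place of 2 (SPON1 and HTR4 passing 2-fold), SIX2 at -0.068 and GJA1 at -0.0097. Without preterm control 209 and term control 200, 4 of the 9 were called lower. Leaving out 1 animal at a time gave 1 to 4 of the 9 called lower at 16 hours, and SIX2 from -0.72 to 1.13; PTN lost its call without LPS 16 h animals 035 or 038 or preterm controls 092 or 113 (adjusted p 0.0868, 0.0999, 0.0509 and 0.109).

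Between LPS + Beta-Ac and LPS, none of the 9 was called in any setting run. Over all genes, the higher calls went from 20 to 3 with limma-voom, 0 in the compared groups alone, 33 without animals 209 and 200, and 2 to 55 when 1 animal was left out (55 without LPS + Beta-Ac animal 255). Lower calls went from 0 to 1 without animals 209 and 200 and were 0 to 2 when 1 animal was left out. The PTN difference ran from -0.19 to 0.63 in those fits. The cause was not tested. EDIL3 was called lower at 16 hours in all 24 settings. With 2 to 4 animals a group, and few counts for SIX2 and TBX18, small differences of these genes were not detectable at this depth.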

Other observations

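The genes most like the set were taken as those whose log2 CPM over the 16 animals had the highest Pearson correlation with the mean z score of the 9 genes, with no test, since all share the same libraries and groups and were picked as extremes. The 10 highest were VSTM4 (0.946), ABITRAM (0.928), DCUN1D1 (0.892), FKBP3 (0.889), JKAMP (0.888), NIPSNAP2 (0.886), ACTR6 (0.885), CALM2 (0.883), LRRC49 (0.882) and ADCY5 (0.870). VSTM4, an immunoglobulin-domain membrane protein, had means of 57.3 CPM in preterm controls, 47.0 at 16 hours, 37.5 after LPS, 34.2 after LPS + Beta-Ac and 50.9 at term. The fold between its highest and lowest group mean was smaller than for any of the 9 genes. The members themselves correlated with that mean from 0.506 for SIX2 to 0.897 for SPON1.

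The 5 lowest were CLEC9A (-0.918), RGS17 (-0.907), CCR6 (-0.907), GCSAM (-0.901) and C1QC (-0.886). CLEC9A, a receptor of cross-presenting dendritic cells, had means of 0.549 CPM in preterm controls, 1.49 at 16 hours, 2.30 after LPS, 2.88 after LPS + Beta-Ac and 0.725 at term. C1QC, a complement chain made by macrophages, had 9.65, 20.9, 28.0, 57.1 and 16.7 CPM in the same order. Both were lower at term than in any exposed group.

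Of the cell type markers, MATN3 and ACAN of the cartilage list met the rule of a call lower in both 5-day groups and not at term, and they are named after their values were seen. MATN3, matrilin 3, had 27.8, 26.9, 35.5 and 56.3 CPM in the preterm controls and 37.7 and 58.0 CPM at term. It had 6.36, 9.12, 3.15 and 2.68 CPM at 16 hours, 9.47, 10.9 and 10.2 CPM after LPS and 4.03, 4.81 and 9.17 CPM after LPS + Beta-Ac, so all 10 exposed animals were below all 6 controls. At 16 hours its log2 difference was -2.87 ± 0.37 (limma adjusted p = 2.66e-05). ACAN, aggrecan, was at 2.28 and 1.88 CPM at term, below every preterm control, and so was not kept there.

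Among markers of other cell types at 16 hours, 5 of 8 type 1 epithelial markers were called lower, 4 of 8 type 2 epithelial markers higher, 2 of 8 endothelial markers lower, 8 of 10 myeloid markers higher and 2 of 7 lymphocyte markers higher, where 6.06% of all genes were called lower and 8.33% higher. Of 7 mesothelial markers 1 was called lower and 1 higher, and 1 of 9 nerve and glia markers and 1 of 9 airway markers were called lower, near the share of all genes.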
